A study of Homo sapiens with 6 samples.

Results

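The interleukin 1 family and its receptors were followed here across a knockdown of the histone demethylase KDM1A, also called LSD1, in ONS-76 cells, an established human medulloblastoma line. The genes were the agonist ligands IL1A, IL1B, IL33 and IL18, the antagonist IL1RN, the receptor genes IL1R1, IL1RL1, IL1R2 and IL1RAP, and the adaptor kinase gene IRAK2. All 10 genes were measured. They were represented by 24 of the 54613 probe sets tested, namely every probe set that the array annotation assigns to exactly 1 of the 10 symbols. RNA from 3 cultures transfected with 10 nM of 1 siRNA against KDM1A (siKDM1A) and from 3 cultures that received transfection reagent alone (control) was hybridized to 6 Affymetrix U133 Plus 2.0 arrays. The study describes 3 independent transfections per group and RNA taken at 72 h, while the sample labels give 48 h and name the siRNA target KDM5A beside LSD1. No array carried a non-targeting siRNA, so loss of KDM1A, any other effect of this siRNA and the presence of siRNA in the cells cannot be told apart in any difference below. Values are deposited log2 values from the robust multi-array average (RMA), a procedure that corrects background, makes the distributions of the arrays alike and summarizes each probe set as 1 value. Differences were tested with limma over all probe sets, with p-values adjusted by the Benjamini-Hochberg procedure (BH) and a threshold of 0.05.

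Interleukin 1 alpha (IL1A) and interleukin 1 beta (IL1B) bind the same receptor, IL1R1, which then recruits the shared accessory chain IL1RAP. The assembled receptor signals through the adaptor MYD88 and kinases of the IRAK family to NF-kB and MAP kinases. IL1RN encodes the receptor antagonist, which occupies IL1R1 without recruiting the accessory chain, and IL1R2 is a decoy receptor that binds ligand without signalling. IL33 acts through IL1RL1, also known as ST2, together with IL1RAP, whereas IL18 uses a receptor pair of its own. IL1A and IL33 are held in the cell and released on damage, and IL1B and IL18 are made as precursors that caspase 1 cleaves. In the brain, interleukin 1 is known mainly as a product of microglia and astrocytes.

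The target gene was reduced on the arrays. KDM1A had log2 values of 6.25, 6.34 and 6.31 in siKDM1A cells, against 9.50, 9.57 and 9.49 in control cells (log2 fold change -3.22, limma BH-adjusted p = 7.1e-07), while none of the 5 KDM5A probe sets passed. Array medians lay between 5.09 and 5.16. As a sign of RNA quality, the ACTB controls at the 3' end exceeded those at the 5' end by a log2 difference that ranged from 0.72 to 1.41 in siKDM1A and from 0.86 to 1.43 in control arrays, so the groups overlapped. Of 11 measured medulloblastoma and granule neuron precursor genes, SOX2 and VIM were at high log2 values (10.22 and 12.90 in siKDM1A, 10.66 and 13.03 in control cells). ATOH1, PAX6, EYA1, OTX2 and SYP had mean values below every array's median in both groups, whereas ZIC1, ZIC2, BARHL1 and NES lay above every median. SOX2 (log2 fold change -0.43, on 1 of 4 probe sets), ZIC1 (-0.39, on 1 of 3) and ZIC2 (-0.40, on its single probe set) were lower in siKDM1A cells, where 5.46% of all genes were lower, and none of the 11 was higher. Markers of myeloid cells, which make interleukin 1 in tissue, did not pass on any of 10 measured genes. Their summed linear value ranged from 243 to 271 in siKDM1A and from 238 to 249 in control arrays, with PTPRC at mean log2 values of 3.90 and 3.83. KRT5 was the 1 of 5 keratinocyte markers that changed, with a log2 fold change of -0.39 (limma BH-adjusted p = 0.038), and PECAM1 was the 1 of 5 endothelial markers, with 0.35 on 1 of its 5 probe sets (limma BH-adjusted p = 0.035). Summed linear values of the keratinocyte markers ranged from 4004 to 4251 in siKDM1A and from 4419 to 4655 in control arrays, and those of the endothelial markers from 360 to 403 and from 362 to 406. Most of the keratinocyte sum came from KRT10 (mean log2 values 11.33 in siKDM1A and 11.32 in control cells) and KRT5 (10.47 and 10.87). KRT14, KRT1 and DSG3 had means from 4.46 to 5.33. The part of these differences in the results below was not tested.

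Among the interleukin 1 genes, the largest changes were in ligands, and they did not all go the same way. IL1A, IL1B and IL18 rose in siKDM1A cells and IL33 fell. The adaptor kinase gene IRAK2 and, by a call that rested on every array, the receptor gene IL1R1 had smaller increases, IL1RL1 rose on 1 of its 4 probe sets, and no probe set of IL1RN, IL1R2 or IL1RAP passed the test. In all, 7 of the 24 probe sets were higher and 1 was lower, against a background of 2.18% higher and 3.73% lower among all probe sets. The groups did not overlap on 12 of the 24, with all siKDM1A arrays above all control arrays on 11 (11.1% of all probe sets) and below them on 1 (13.4% of all probe sets). Taking the brightest probe set of each gene, 5 of the 10 genes were higher and 1 was lower, against 3.45% higher and 5.46% lower among 19775 genes. The median log2 fold change of the 24 probe sets was 0.16, and that of all probe sets was 0.01. The 10 genes were chosen with earlier results of these data known, so these counts are not independent evidence.

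**Figure D1:**
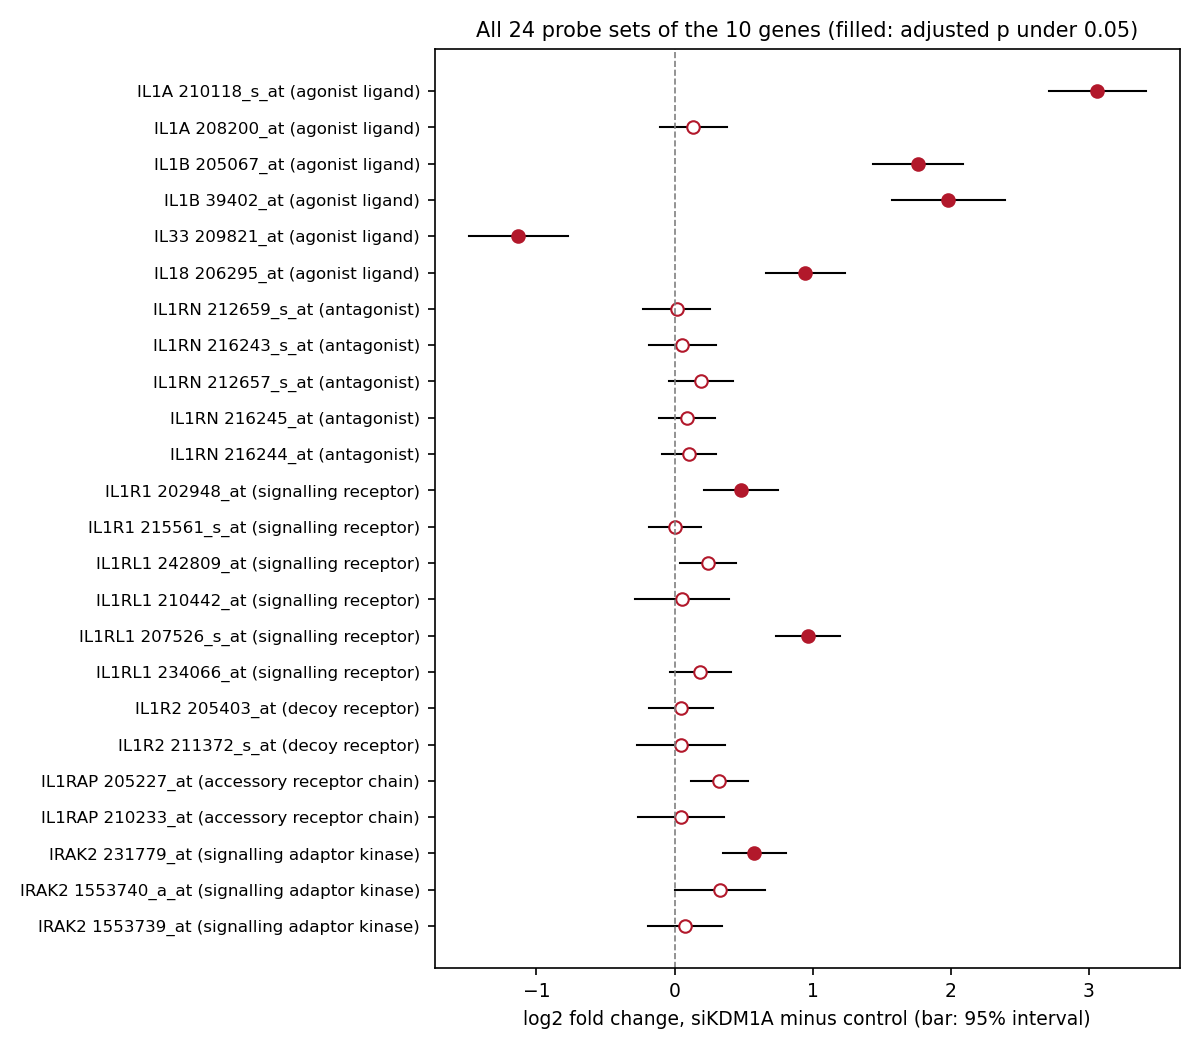
Log2 fold change (siKDM1A minus control, horizontal axis) of each of the 24 probe sets, grouped by gene and role; bars give limma's 95% interval, only filled points passed the 0.05 threshold. IL1A at 3.06 and IL33 at -1.13 mark the ends of the range, and all 5 IL1RN probe sets lie between 0.02 and 0.19.

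The promoters of IL1A, IL1B and IL33 are shown because these are the ligand genes with the largest changes, the first 2 upward and the third downward. Each line holds the 250 bases before an annotated start site, 5' to 3' on the gene's strand, from RefSeq (GRCh38.p14). They lie at chr2:112784494-112784743 on the minus strand for IL1A, chr2:112836780-112837029 on the minus strand for IL1B, and chr9:6214899-6215148 on the plus strand for IL33. Capitals mark matches to the motifs described in the next paragraph.
IL1A: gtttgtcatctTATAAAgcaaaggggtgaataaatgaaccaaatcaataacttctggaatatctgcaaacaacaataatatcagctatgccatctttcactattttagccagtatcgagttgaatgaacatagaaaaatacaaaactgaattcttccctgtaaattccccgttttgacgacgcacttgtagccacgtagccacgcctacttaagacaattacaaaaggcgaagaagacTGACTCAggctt
IL1B: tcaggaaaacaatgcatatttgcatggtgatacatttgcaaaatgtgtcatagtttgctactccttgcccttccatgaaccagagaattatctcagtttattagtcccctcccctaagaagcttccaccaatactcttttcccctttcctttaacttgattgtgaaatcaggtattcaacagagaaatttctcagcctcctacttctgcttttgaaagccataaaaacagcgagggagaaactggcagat
IL33: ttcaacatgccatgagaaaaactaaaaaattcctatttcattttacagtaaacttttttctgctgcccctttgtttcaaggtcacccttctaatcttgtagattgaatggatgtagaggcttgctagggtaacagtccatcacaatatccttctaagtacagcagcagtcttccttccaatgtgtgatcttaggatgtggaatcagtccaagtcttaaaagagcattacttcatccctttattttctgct

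Promoter windows of 300 bases, 250 before and 50 after a start site, were available for 9 of the 10 genes in 18 windows, and IL18 had no entry. They were searched on both strands for the AP-1 motif TGANTCA, the CRE TGACGTCA, TATAAA and the NF-kB consensus, of which none contains another. Among all 35116 windows, 7.71% held TGANTCA, 1.85% the CRE, 11.5% TATAAA and 11.3% the NF-kB consensus. In the IL1A window shown above, TGACTCA began 12 bases before the start site, a second match, TGAGTCA, began at base 39 of the transcript, and TATAAA began 239 bases before the start site. Both AP-1 matches also lay in the window of a second annotated IL1A start site, which overlaps the first. The window of IL1B and both windows of IL33 held no match to any of the 4 motifs. Other matches in the family were single AP-1 motifs in 1 of 3 windows of IL1RN and 1 of 2 of IL1RL1, the NF-kB consensus and TATAAA in 1 of 2 windows of IL1R2, and TATAAA in 1 window each of IL1RN (on both strands, overlapping), IL1R1 and IL1RL1. These are matches of letters only, and binding was not measured.

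IL1A, a ligand that acts on IL1R1 of the same or neighbouring cells, had the largest increase of all 19775 genes on their brightest probe sets. On 210118_s_at the log2 values were 9.18, 9.72 and 9.48 in siKDM1A cells, against 6.16, 6.61 and 6.44 in control cells. The lowest siKDM1A array lay 2.57 log2 units above the highest control array, and array a was the lowest of its group in both. The means were 9.46 ± 0.27 and 6.40 ± 0.23 (SD, n = 3 each), a log2 fold change of 3.06 (standard error 0.16, 95% interval 2.71 to 3.41, limma BH-adjusted p = 3.1e-05). This probe set is also among the induced genes that the study itself listed from these arrays, at 8.34-fold. The other IL1A probe set, 208200_at, did not show this change. Its values were 3.54, 3.40 and 3.64 in siKDM1A and 3.22, 3.41 and 3.54 in control cells, below the lower quartile of every array in both groups, with overlapping arrays and a log2 fold change of 0.13 (limma BH-adjusted p = 0.57).

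IL1B, the second agonist of IL1R1 and the form that is secreted after cleavage, rose on both of its probe sets. On 205067_at the values were 7.95, 8.48 and 8.50 in siKDM1A cells, against 6.50, 6.61 and 6.53 in control cells. This is a 3.39-fold increase (log2 fold change 1.76, standard error 0.14, limma BH-adjusted p = 0.00025). On 39402_at the values were 7.99, 8.63 and 8.50 in siKDM1A cells, against 6.68, 6.34 and 6.16 in control cells, a 3.95-fold increase (log2 fold change 1.98, standard error 0.18, limma BH-adjusted p = 0.00046). No siKDM1A array overlapped a control array on either probe set, and siKDM1A array a was the lowest of its group on both, as it was for IL1A. The 95% intervals of the 2 probe sets, 1.44 to 2.09 and 1.58 to 2.39, overlapped.

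IL18, which promotes interferon gamma production by lymphocytes, rose 1.93-fold on its single probe set. The values were 8.49, 8.68 and 8.24 in siKDM1A cells, against 7.62, 7.60 and 7.36 in control cells (log2 fold change 0.95, standard error 0.13, limma BH-adjusted p = 0.0032). The groups did not overlap, and here array c was the lowest in both groups.

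IL33, an alarmin that is stored in the nucleus, was the only one of the 10 genes that fell. Its single probe set had values of 6.74, 6.08 and 6.15 in siKDM1A cells, against 7.44, 7.40 and 7.52 in control cells. The control arrays lay within 0.115 log2 units of each other, while siKDM1A array a stood above the other 2 of its group and still below every control array. The log2 fold change was -1.13 (standard error 0.16, 95% interval -1.49 to -0.77, limma BH-adjusted p = 0.0038), a 2.19-fold lower level. The array with the highest IL33 value among the siKDM1A arrays was thus the one with the lowest IL1A and IL1B values. Among the control arrays IL33 was highest in array c, while IL1A on 210118_s_at was lowest in array a. IL1B was lowest in control array a on 205067_at and in control array c on 39402_at.

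**Figure D2:**
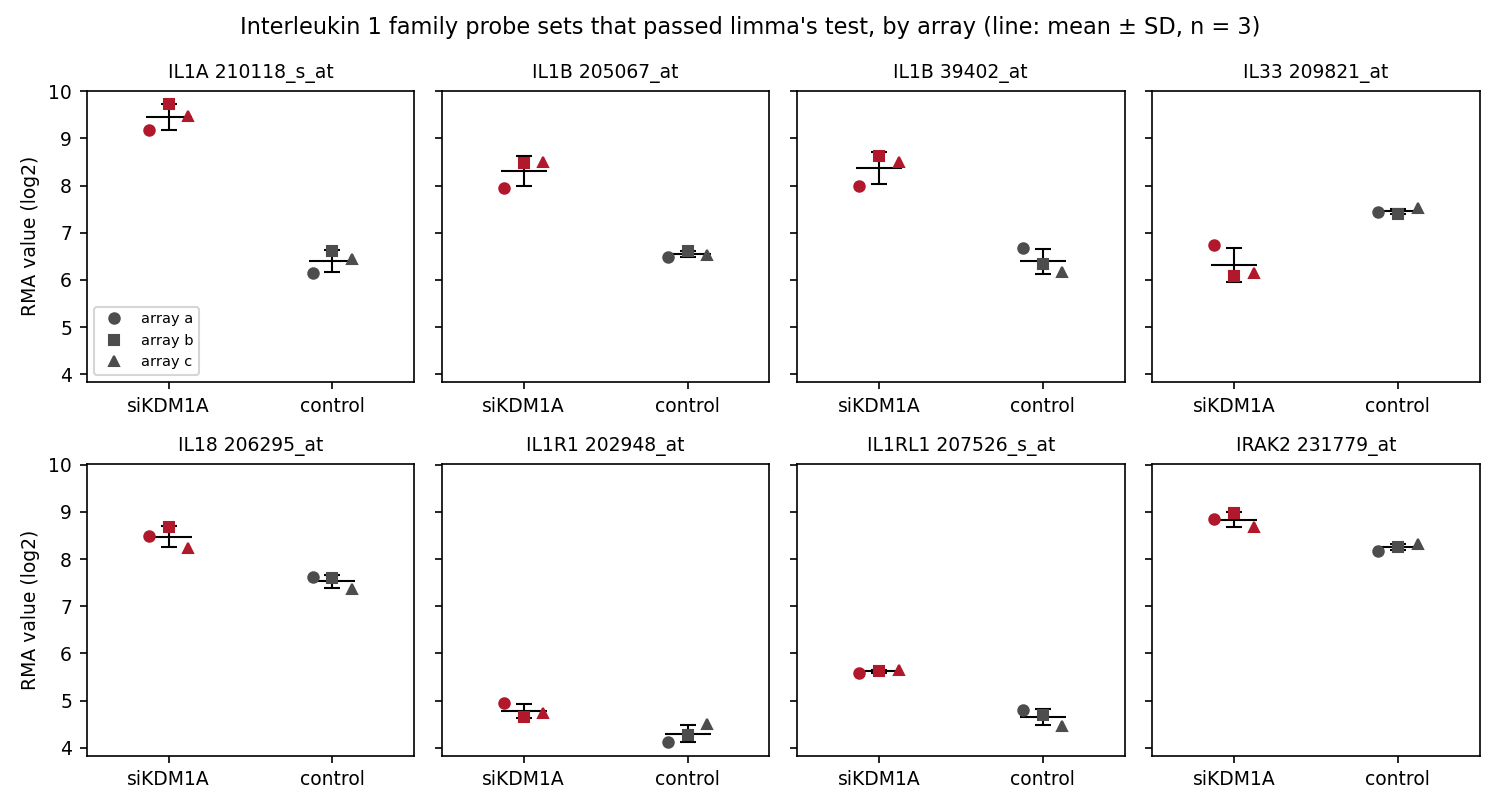
RMA values (log2, vertical axis) of the 8 probe sets that passed limma's test, with siKDM1A arrays in red and control arrays in grey; marker shape gives the replicate letter, and lines give the mean and SD of 3 arrays. In each panel the groups are separate, by 2.57 log2 units for IL1A and by 0.16 for IL1R1.

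IL1RN, the receptor antagonist, had log2 fold changes from 0.02 to 0.19 on its 5 probe sets, and the arrays of the groups overlapped on each. On the brightest, 212659_s_at (mean over 6 arrays), the values were 5.60, 5.41 and 5.61 in siKDM1A cells, against 5.63, 5.60 and 5.34 in control cells (log2 fold change 0.02, 95% interval -0.22 to 0.26, limma BH-adjusted p = 0.96). The remaining 4 probe sets had mean values below the median of every array in both groups, and 216245_at and 216244_at lay below every lower quartile. The highest bound of the 5 intervals was 0.43. On 212659_s_at, the bound of 0.26 lay below the log2 fold changes of IL1A on 210118_s_at (3.06) and of IL1B (1.76 and 1.98). The 4 dimmer probe sets cannot decide this, since the dim IL1A probe set 208200_at did not show the change of 210118_s_at either.

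IL1R1, the signalling receptor of IL1A and IL1B, rose 1.40-fold on 202948_at. The values were 4.95, 4.66 and 4.73 in siKDM1A cells, against 4.13, 4.27 and 4.50 in control cells, below the median of every array in both groups, with no overlap and a gap of 0.16 (log2 fold change 0.48, standard error 0.12, limma BH-adjusted p = 0.0497). This call was lost whichever single array was left out (limma BH-adjusted p from 0.055 to 0.16), and also after median centring or cyclic loess (limma BH-adjusted p = 0.068 and 0.088). With the replicate letters as a block, IL1R1 did not pass either (limma BH-adjusted p = 0.088). The other probe set, 215561_s_at, was below every lower quartile and had a log2 fold change of 0.003 (limma BH-adjusted p = 0.99).

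IL1RL1, which encodes the IL33 receptor and, from a shorter transcript, a soluble form that captures IL33, rose on 1 of 4 probe sets. On 207526_s_at the values were 5.59, 5.62 and 5.65 in siKDM1A cells, against 4.80, 4.70 and 4.46 in control cells, a 1.95-fold increase (log2 fold change 0.97, standard error 0.10, limma BH-adjusted p = 0.0010). The siKDM1A arrays agreed within 0.06 log2 units and none overlapped the control arrays. The brightest probe set, 242809_at, had values of 6.40, 6.22 and 6.26 in siKDM1A and 6.01, 6.12 and 6.02 in control cells, also without overlap, with a log2 fold change of 0.24 that did not pass (limma BH-adjusted p = 0.18). The remaining 2 had log2 fold changes of 0.19 and 0.05 (limma BH-adjusted p = 0.35 and 0.89). The interval of 207526_s_at, 0.73 to 1.20, did not overlap that of any of the other 3, of which the highest bound was 0.44. The annotation used here does not assign the probe sets to transcript forms. For the IL33 axis, the ligand was therefore lower and 1 probe set of its receptor gene higher in the same arrays.

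IL1R2, the decoy receptor, had a log2 fold change of 0.05 on each of its 2 probe sets (limma BH-adjusted p = 0.86 and 0.91). The values of 205403_at were 3.89, 3.79 and 4.02 in siKDM1A cells, against 3.73, 3.85 and 3.99 in control cells, and both probe sets lay below the median of every array. IL1RAP, the accessory chain shared by the IL1R1 and IL1RL1 receptors, had values of 9.47, 9.66 and 9.68 in siKDM1A cells, against 9.25, 9.33 and 9.25 in control cells on 205227_at. The groups did not overlap, and the log2 fold change of 0.32 (95% interval 0.12 to 0.53) did not pass (limma BH-adjusted p = 0.078). It passed after cyclic loess and with an intensity trend and robust prior (limma BH-adjusted p = 0.035 and 0.038). Its other probe set, 210233_at, had a log2 fold change of 0.05 (limma BH-adjusted p = 0.90).

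IRAK2, a kinase-like protein of the receptor complex that sustains NF-kB signalling, rose 1.49-fold on its brightest probe set. The values of 231779_at were 8.84, 8.99 and 8.68 in siKDM1A cells, against 8.18, 8.26 and 8.32 in control cells, without overlap (log2 fold change 0.58, standard error 0.10, limma BH-adjusted p = 0.011). The 1553740_a_at probe set had values of 4.26, 4.64 and 4.13 in siKDM1A and 4.13, 4.12 and 3.80 in control cells. Its groups were separated by less than 0.01, and its log2 fold change of 0.33 did not pass (limma BH-adjusted p = 0.26). The third, 1553739_at, was below the lower quartile of every array (log2 fold change 0.08, limma BH-adjusted p = 0.80).

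Set side by side, the 4 agonist ligands all passed on their brightest probe set, 3 higher and 1 lower, with a median log2 fold change of 1.35. The 6 receptor, antagonist and adaptor genes had a median of 0.28, with 2 higher and none lower, and a largest log2 fold change of 0.58. Of these 2, IL1R1 lost its call whichever single array was left out. Over all 18 probe sets of the 6 genes 3 were higher, where 2.18% of all probe sets were higher and 3.73% lower. Their largest log2 fold change was the 0.97 of IL1RL1 207526_s_at, slightly above the 0.95 of the ligand gene IL18. The median over all genes was 0.01, with 3.45% of all genes higher and 5.46% lower. The contrast between ligands and the other members is a description of these 10 genes and was not itself tested.

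By the study's one-way analysis of variance, which takes the spread from the 6 values of the probe set alone, 1.24% of all probe sets passed after Benjamini-Hochberg adjustment, and of the 24 only 210118_s_at of IL1A did (variance analysis, BH-adjusted p = 0.031). For the other 7 probe sets that limma called, the adjusted p by the one-way test ran from 0.051 for IL1B to 0.22 for IL1R1.

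The members lie in 2 family clusters on chromosome 2 and at 4 separate places. In the ligand cluster the protein-coding genes follow each other in the order IL1A, IL1B, IL37, IL36G, IL36A, IL36B, IL36RN, IL1F10 and IL1RN (RefSeq, GRCh38.p14). All 9 were measured, IL1A and IL1B rose, and the 7 from IL37 to IL1RN had log2 fold changes between -0.09 and 0.13, none of which passed. CKAP2L, a mitotic spindle gene and the nearest protein-coding neighbour on the IL1A side, fell by 0.70 on the log2 scale (limma BH-adjusted p = 0.0014), and PSD4, the neighbour beyond IL1RN, had 0.35 (limma BH-adjusted p = 0.063). In the receptor cluster the order is IL1R2, IL1R1, IL1RL2, IL1RL1, IL18R1 and IL18RAP. Of these 6 genes IL1R1 passed on its brightest probe set. IL18R1, the ligand-binding chain of the IL18 receptor, had values of 5.34, 5.90 and 5.51 in siKDM1A cells, against 5.04, 5.14 and 5.15 in control cells, with no overlap (log2 fold change 0.47, limma BH-adjusted p = 0.082). Of the 6 omissions of a single array, it passed only in that of siKDM1A array a (limma BH-adjusted p = 0.044). MAP4K4, the neighbour beyond IL1R2, fell by 0.51 on the log2 scale (limma BH-adjusted p = 0.015).

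**Figure D3:**
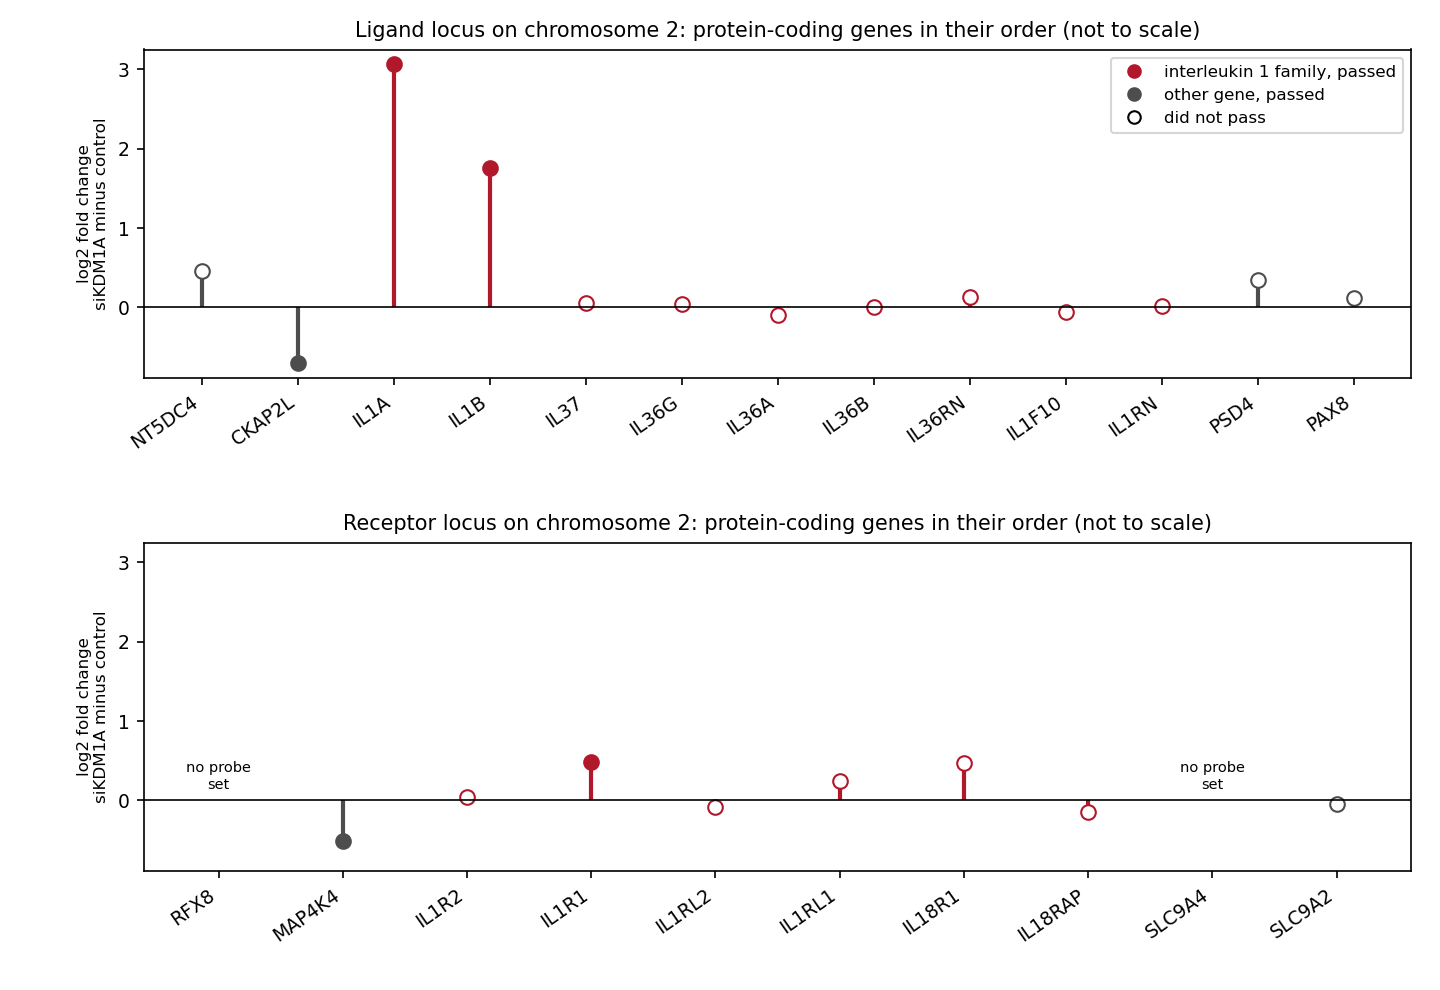
Log2 fold change (siKDM1A minus control, vertical axis) on the brightest probe set of each protein-coding gene in the order of the genes along chromosome 2, with distances not to scale; red marks interleukin 1 family genes, grey their neighbours, and filled points passed limma's test. IL1A (3.06) and IL1B (1.76) stand at 1 end of the ligand cluster, and the 7 other family genes there lie between -0.09 and 0.13.

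The other genes of the pathway are counted on their brightest probe sets, for which 3.45% of all genes were higher, 5.46% were lower and 24.2% had an unadjusted p under 0.05. None of the 7 further ligands and antagonists (IL36A, IL36B, IL36G, IL36RN, IL37, IL1F10 and IL18BP) passed, nor did any of the 6 further receptor genes, and the unadjusted p was under 0.05 for 0 of the 7 and 1 of the 6. Of 22 measured genes of receptor-proximal signalling, 1 was higher, 2 were lower and 19 did not pass, which is near the share among all genes, with a median log2 fold change of 0.07. NFKBIA, the NF-kB inhibitor that is itself an NF-kB target, rose on 1 of 2 probe sets (log2 fold change 0.68, limma BH-adjusted p = 0.017), a call lost without control array a or c (limma BH-adjusted p = 0.061 for each). PELI2, a ubiquitin ligase that binds IRAK proteins, had values of 6.61, 6.64 and 6.61 in siKDM1A cells, against 7.70, 7.73 and 7.68 in control cells. This is 2.12-fold lower on 1 of 2 probe sets (limma BH-adjusted p = 0.00016), with arrays of each group within 0.06 of each other, and it also passed the one-way analysis of variance (variance analysis, BH-adjusted p = 0.0071). MAP3K3, a kinase upstream of NF-kB, had a log2 fold change of -0.36 (limma BH-adjusted p = 0.035) and was lower on 1 of 3 probe sets. That call was lost after cyclic loess (limma BH-adjusted p = 0.074) and without any single array other than siKDM1A c (limma BH-adjusted p up to 0.14), and neither MAP3K3 nor NFKBIA passed the one-way analysis of variance. The adaptor MYD88, the kinase IRAK1 and TRAF6 had log2 fold changes of -0.17, 0.11 and 0.16 (limma BH-adjusted p = 0.34, 0.55 and 0.38).

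None of the 22 genes of ligand processing and the inflammasome passed limma's test, and 5 had an unadjusted p under 0.05, a share like that of all genes. CASP1, which cleaves the IL1B and IL18 precursors, had mean values of 8.13 in siKDM1A and 8.16 in control cells (log2 fold change -0.02, limma BH-adjusted p = 0.93), and CAPN2, a calpain subunit gene, had 11.80 and 11.65 (log2 fold change 0.15, limma BH-adjusted p = 0.39). NLRP3, a sensor of the inflammasome, had mean values of 3.96 and 3.90, and its adaptor PYCARD 4.86 and 4.77. All 4 of these means for NLRP3 and PYCARD lay below the median of every array.

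Genes known to respond to interleukin 1, such as chemokines and NF-kB inhibitors, were counted next. Of 27 measured, 16 were higher, none was lower and 11 did not pass, with a median log2 fold change of 0.60. Among all genes 3.45% were higher and 5.46% were lower. The 4 largest increases were those of the chemokine genes CXCL2 (6.18-fold), CCL20 (5.14-fold) and CXCL3 (4.61-fold) and of the cytokine gene IL11 (3.52-fold), with limma BH-adjusted p-values from 2.7e-05 to 7.5e-05. Each of these 4 is also among the genes that the study itself picked from these arrays, and CXCL2 was higher on 1 of its 3 probe sets. The name of that CXCL2 probe set ends in _x_at. With probe sets of such names left out, 15 rather than 16 genes of the list were higher, and the CXCL2 call was lost. The list was drawn up with results of these arrays known, so its count is not independent evidence of direction. These genes also respond to other stimuli of NF-kB and AP-1, and whether IL1A or IL1B protein reached the receptor was not measured. Among the 11 that did not pass, ICAM1, VCAM1 and TNFAIP6 had log2 fold changes of 0.40, 0.34 and 0.27 with all siKDM1A arrays above all control arrays, and the other 8 overlapped. Over all genes, 2669 of 19775 had all siKDM1A arrays above all control arrays. IRF1 and MMP1 had log2 fold changes of -0.01 and -0.09, and the single probe set of CXCL1 was below every lower quartile in both groups, with mean values of 3.10 and 3.10.

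**Figure D4:**
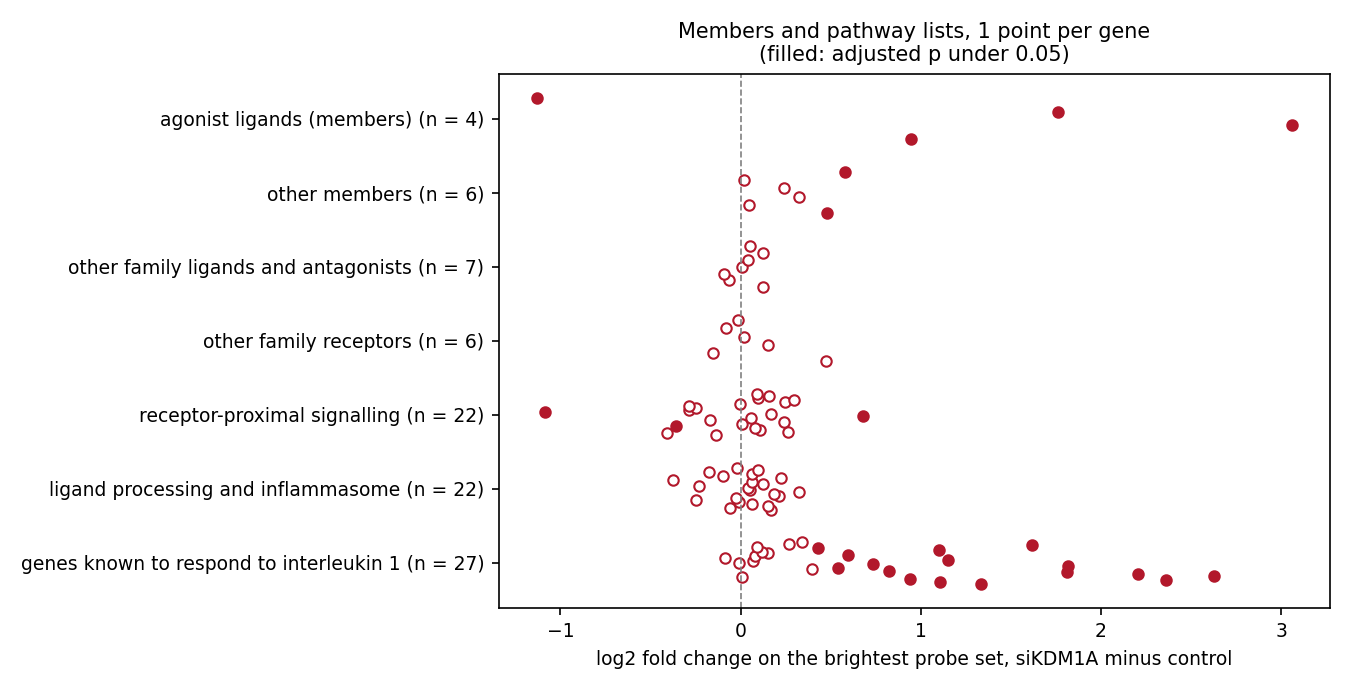
Log2 fold change (siKDM1A minus control, horizontal axis) on the brightest probe set, 1 point per gene, for the 10 members split into agonist ligands and the rest and for 5 lists of other pathway genes; filled points passed limma's test. All 16 filled points of the interleukin 1 response list lie to the right of 0, and the processing and inflammasome list has no filled point.

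Across the 6 arrays, the genes outside the family whose brightest probe sets tracked IL1A most closely were KLRC3, TNIK, SYTL5, LOC105377276 and LTBP1, with Pearson r from 0.998 to 0.999. The 6 points form 2 groups of 3, so r reflects the difference between groups together with the spread inside them. The log2 fold changes of these 5 genes were 0.65, 0.39, 0.47, 1.35 and 0.89, each smaller than that of IL1A.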

How the data were processed

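RNA of 6 ONS-76 cultures, 3 of them siKDM1A and 3 control, was profiled with 1 array each. The deposited values are log2 intensities that the authors derived by RMA with Partek Genomics Suite. For this program, the version was not given in the sources used here. The values cover 54675 probe sets. This normalization largely removes a shift shared by most genes. Scanner files were not used. After 62 Affymetrix controls were left out, the other 54613 probe sets were fitted in R 4.3.3 by limma 3.58.1 (lmFit, eBayes), two-sided, and BH adjustment ran over all of them. In the platform annotation 41091 named a single gene. The brightest probe set, with the highest mean over 6 arrays, stood for a gene where it was counted once. Members and lists were chosen with earlier results of these data known. Of 91 genes on the pathway lists, 84 were measured. Named genes were all members, up to 4 called genes of each list with the largest change, KDM1A, KDM5A and the 5 genes most like IL1A. Further list members and neighbours were chosen after their values were seen. Summed linear values add the values after the log2 was undone. The fitting steps were tested on simulated data. The 15 alternatives were 2 scalings, a filter on dim probe sets, another variance prior, the replicate letters as a block, the study's one-way analysis of variance, omission of each array, and 3 other ways to represent a gene. With 3 arrays a group, their number limits the precision, and an exact permutation test could not go below p = 0.1.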

Additional observations from a re-analysis of the deposited data

How the results depend on the processing

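The 8 called probe sets of the family kept their direction in all 96 values under the alternatives run on them, and 7 of the 8 kept their call without each single array. The exception, IL1R1, is described above. Counted by gene, 4 rather than 5 family genes were higher without each single array, after median centring and with the letters as a block. The mean of all probe sets of each gene also gave 4. The other variance prior and the smallest p of each gene gave 6. Of 186 values of family probe sets that did not pass, 184 still did not, and the 2 that passed were those of IL1RAP 205227_at.

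Under the study's one-way analysis of variance, 275 probe sets were higher and 401 lower in all. By the same test, 1 family probe set and 1 family gene were higher and 0 were lower, and receptor-proximal signalling had 0 genes higher and 1 lower. These smaller counts come with a spread estimated from the 6 values of each probe set alone. Signalling had 1 gene lower after cyclic loess, where the processing list had 1 gene higher. After median centring, with dim probe sets left out and with the other variance prior, signalling had 3 genes lower, against 2 in the main test. The other receptors had 1 gene higher with the mean of all probe sets.

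Leaving out single arrays gave 609 (without control c) to 1103 (without siKDM1A c) probe sets higher and 694 (without control c) to 1563 (without siKDM1A c) lower. The counts over all probe sets fell by over 1.5 times without control a, b or c, and those lower also without siKDM1A a. Signalling had 0 to 1 genes higher, with 0 without control a or control c, and 1 to 2 lower, with 2 only without siKDM1A c. The other receptors had 0 to 1 higher, with 1 only without siKDM1A a.

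Log2 fold changes near 0 that were never called changed sign. After median centring IL1RN 212659_s_at had -0.011 and IL1R1 215561_s_at -0.025, and IL1R1 215561_s_at had -0.029 after cyclic loess. Without single arrays, IRAK2 1553739_at ranged from -0.0073 to 0.18, IL1R2 205403_at from -0.018 to 0.11, IL1R2 211372_s_at from -0.063 to 0.19, IL1RAP 210233_at from -0.069 to 0.21, IL1RL1 210442_at from -0.099 to 0.16, IL1RN 212659_s_at from -0.075 to 0.080, IL1RN 216243_s_at from -0.048 to 0.12 and IL1R1 215561_s_at from -0.031 to 0.026.

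Whether the replicate letters pair the arrays could not be settled with 3 arrays a group. Deviations from the group means correlated at 0.11 for letter a, 0.23 for b and -0.13 for c, and not every array correlated best with its own letter. The log2 difference of the ACTB controls between the 3' and 5' ends was largest in array a of both groups (1.41 in siKDM1A, 1.43 in control). It was smallest in array b of both (0.72 and 0.86). With the letters as a block, 1080 probe sets were higher and 1639 lower, signalling had 1 gene lower, and IL1R1 202948_at no longer passed (limma BH-adjusted p = 0.088), while the other 7 called family probe sets still did.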
